A study of Mus musculus with 28 samples.

Results

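The 5 Polo-like kinase genes of the mouse, Plk1, Plk2, Plk3, Plk4 and Plk5, were followed through a nascent RNA study of forebrain cultures. They were chosen by name, and all 5 were found among the 22919 genes listed in the authors' deposited comparison tables, of which 21192 had a test. The cultures came from CD1 mouse embryos at embryonic day 18 and were labelled as neurons with astrocytes and oligodendrocyte precursor cells. Every culture received lentivirus on day in vitro 14, carrying a short hairpin RNA that was either a control (shCtrl) or directed at Rai1, a chromatin protein gene (shRai1), and was harvested on day 17. For the last 4 h each arm was held in vehicle (water), in 1 µM tetrodotoxin (TTX), which blocks voltage-gated sodium channels and so action potentials, or in 20 µM bicuculline (BIC), which blocks GABA-A receptors and so raises network activity. Bromouridine was present for the final 20 min, and the RNA that had incorporated it was captured and sequenced (Bru-seq), so the values describe recent transcription and not the standing pool of mRNA. There were 16 Bru-seq libraries in 6 groups: 2 each for shCtrl in vehicle and shCtrl in BIC, and 3 each for shCtrl in TTX and for shRai1 in vehicle, TTX and BIC. Another 12 ChIP libraries were not analysed here.

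Polo-like kinases are serine/threonine kinases that find their substrates through a polo-box domain, which binds phosphorylated motifs. Plk1 drives entry into and passage through mitosis, and Plk4 starts centriole duplication, so both are best known from dividing cells. Plk2 (also called Snk) and Plk3 (also called Fnk) are the members known as immediate-early genes of neurons: Plk2 is induced by sustained activity, moves to dendritic spines and marks the scaffold SPAR, the product of Sipa1l1, for degradation, a step of homeostatic synaptic weakening. Plk3 is also known from stress responses, and Plk5 is a brain-expressed member with little or no kinase activity.

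In the drug comparisons below only Plk2 and Plk3 were called, and their responses were not tested against those of the other members. The promoters of Plk2 and Plk3 are shown beside that of Plk1, whose changes passed no test. Each is the 250 bases before the annotated start site, 5′ to 3′ on the strand of the gene, from RefSeq in build GRCm38.p6; all 5 members matched a RefSeq promoter. The Plk2 stretch is chr13:110394794-110395043 on the plus strand, the Plk3 stretch is chr4:117133964-117134213 on the minus strand, and the Plk1 stretch is chr7:122159185-122159434 on the plus strand. Capitals mark the cyclic AMP response element (CRE, TGACGTCA) in Plk2, the CRE half-sites (TGACG) in Plk3 and the CCAAT box in Plk1.
Plk2: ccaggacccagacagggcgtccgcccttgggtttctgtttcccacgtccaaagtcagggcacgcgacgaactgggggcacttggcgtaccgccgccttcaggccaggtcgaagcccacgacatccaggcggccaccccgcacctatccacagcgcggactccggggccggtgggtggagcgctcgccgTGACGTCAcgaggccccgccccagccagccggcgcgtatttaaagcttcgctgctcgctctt
Plk3: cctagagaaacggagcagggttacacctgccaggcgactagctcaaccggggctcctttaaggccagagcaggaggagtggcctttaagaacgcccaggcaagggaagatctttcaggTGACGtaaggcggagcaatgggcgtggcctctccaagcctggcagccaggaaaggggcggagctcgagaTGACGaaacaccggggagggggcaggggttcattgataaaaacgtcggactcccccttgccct
Plk1: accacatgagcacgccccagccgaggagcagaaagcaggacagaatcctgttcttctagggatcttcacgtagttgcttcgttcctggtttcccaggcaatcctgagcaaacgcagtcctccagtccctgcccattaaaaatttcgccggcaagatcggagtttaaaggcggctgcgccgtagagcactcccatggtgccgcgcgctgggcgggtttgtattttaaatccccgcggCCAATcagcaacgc

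Motifs were searched on both strands of the 300-base window that runs from 250 bases before to 50 after the start site. Plk2 held the full CRE, the palindrome bound by CREB, with its first base 62 and its last base 55 bases upstream of the start site. The CRE contains the half-site on each strand, and a separate half-site lay 22 to 26 bases past the start. Plk3 held no full CRE but a pair of half-sites on the strand of the gene, at 132 to 128 and at 63 to 59 bases upstream. Plk4 had 1 half-site, 30 to 26 bases upstream, and Plk1 and Plk5 had none. Over 32851 promoters of the same length, 1.79% held the full CRE, 20.8% held at least 1 half-site and 5.01% held 2 or more. The CCAAT box was found in Plk1, 14 to 10 bases upstream, and in Plk5, 5 to 1 bases upstream, as in 37.4% of all promoters. Plk1 also held the cell cycle homology region TTTGAA (CHR), known from genes of late cell cycle, 31 to 36 bases past its start, as did 17.9% of promoters. No member's window held the letters of an AP-1 site (TGANTCA, 7.81% of promoters), an EGR site (GCGNGGGCG, 5.55%) or a CArG box (1.63%). A match of letters is a description of the sequence, and binding at these promoters was not measured here.

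**Figure D1:**
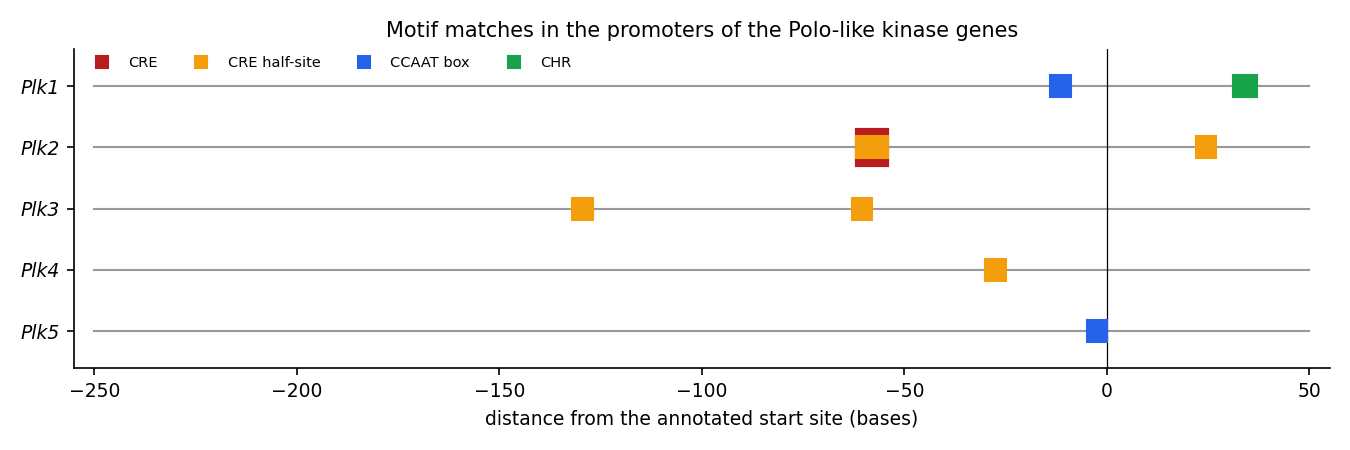
Motif matches in the 5 promoter windows, plotted by distance in bases from the annotated start site (vertical line); each coloured box is a match on either strand. The full CRE appears in Plk2 alone, 62 to 55 bases upstream, and the CRE half-sites lie in Plk2, Plk3 and Plk4.

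Levels were compared between members in FPKM, fragments per kilobase of gene scaled to the mapped reads of the library, for which the authors' deposited table gives 1 pooled value per condition with a lower and an upper bound. The columns used, Scram_Unt, Scram_TTX and Scram_Bic, were read from their names alone as shCtrl in vehicle, TTX and BIC. In shCtrl cultures in vehicle, Plk2 stood at 165.53 FPKM in the authors' deposited table, with bounds of 127 and 204. It stood at 81.4 FPKM (63.1 to 99.7) in the TTX column and at 447 FPKM (333 to 562) in the BIC column of the authors' deposited table. None of the 3 ranges overlapped, and the order was TTX below vehicle below BIC. Plk2 was above 97.2% of the genes in the authors' deposited FPKM table in vehicle, above 95.8% in TTX and above 98.3% in BIC.

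Plk3 followed the same order at a lower level. Its pooled values in the authors' deposited table were 10.6 FPKM (7.14 to 14.0) in vehicle, 6.19 FPKM (3.90 to 8.48) in TTX and 17.1 FPKM (12.2 to 22.03) in BIC. The TTX and BIC ranges did not overlap, while the vehicle range overlapped both. Plk2 was 15.7-fold above Plk3 in vehicle, 13.1-fold in TTX and 26.2-fold in BIC, as ratios of the authors' pooled FPKM.

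Plk1, the mitotic kinase, was listed at 3.87 FPKM (2.11 to 5.64) in vehicle, 4.35 FPKM (2.46 to 6.24) in TTX and 3.39 FPKM (1.77 to 5.02) in BIC, from the authors' deposited table. Plk4, the centriole kinase, was listed at 1.33 FPKM (0.475 to 2.18), 0.929 FPKM (0.228 to 1.63) and 1.08 FPKM (0.337 to 1.83) in the same 3 conditions of the authors' deposited table. For each of these genes the 3 ranges overlapped, and the ranges of Plk1 and Plk4 overlapped each other narrowly in vehicle and BIC and not in TTX. Plk5 was listed at 0 in vehicle and BIC and at 0.223 FPKM (0 to 0.727) in TTX in the authors' deposited table, so no fold is given for it. By pooled level the order was Plk2, Plk3, Plk1, Plk4 and Plk5 in all 3 conditions; Plk3 and Plk1, neighbours in that order, had ranges apart in vehicle and BIC and overlapping in TTX. Plk2 alone made up 91.3% of the summed FPKM of the family in vehicle, 87.4% in TTX and 95.4% in BIC.

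**Figure D2:**
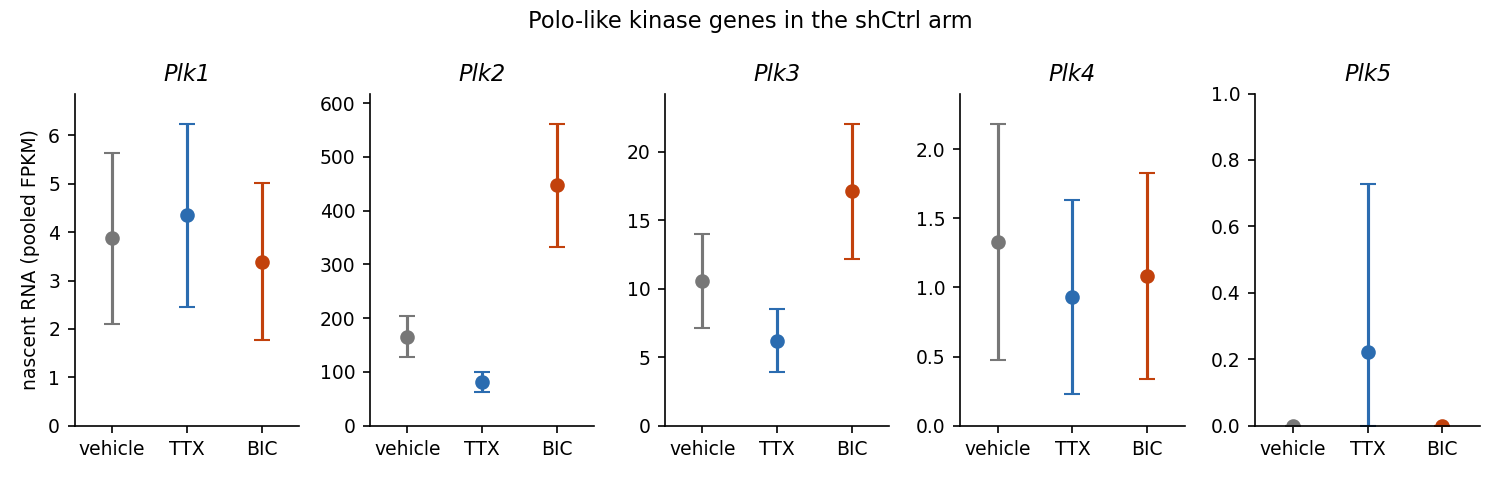
Pooled FPKM of the 5 genes in shCtrl cultures (points) with the bounds given in the authors' deposited table (bars), each panel on its own linear axis. Plk2 goes from 81.4 in TTX through 165.53 in vehicle to 447 in BIC without overlap of the bounds, and the bounds of Plk1 and Plk4 overlap across the 3 conditions.

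In build mm9, the build in the submitters' processing notes, the authors' deposited FPKM table places Plk2 at chr13:111185252-111191051, with 5800 bases, and Plk3 at chr4:116799418-116806557, 7140 bases. Plk1 lies at chr7:129302951-129313389, Plk4 at chr3:40603873-40620805 and Plk5 at chr10:79819204-79828234 in that table. No other listed gene overlaps Plk1, Plk2, Plk4 or Plk5. Plk3 overlaps Tctex1d4, for which the authors' deposited tables give a mean normalized count of 0.254, against 161 for Plk3. In the authors' deposited table the FPKM of Tctex1d4 was 3.91 (vehicle), 1.08 (TTX) and 6.99 (BIC), the same order as Plk3, and its part in the Plk3 values was not tested. The strand setting of the counting is not given in the sources used here.

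The deposited tables give, for each gene and comparison, the log2 change with its standard error (SE), the Wald p-value and an adjusted p-value from DESeq2; values of single libraries and their depth were not analysed here, so neither values per library nor their spread can be shown. A change was called at an adjusted p under 0.05. The mean normalized count over the Bru-seq libraries was 4563 for Plk2, 161 for Plk3, 55.4 for Plk1, 44.6 for Plk4 and 2.35 for Plk5 in the authors' deposited tables, against a median of 107 over all tested genes, and the SEs grew in that order. Nothing in the labels says that the libraries of a group came from separate dissections, so p-values measure the spread between these libraries, which may be technical. In mixed cultures, fewer cells of a type and less RNA per cell cannot be told apart. The targeted gene Rai1 showed no detectable fall in the shRai1-labelled libraries: its log2 change against shCtrl in the authors' deposited tables was 0.16 (SE 0.073, adjusted p 0.357) in vehicle, -0.12 (SE 0.064, adjusted p 1.00) in TTX and 0.03 (SE 0.073, adjusted p 1.00) in BIC. Nascent RNA does not measure the mature transcript that an shRNA targets, so this neither checks nor contradicts the arm labels. Markers of neurons, astrocytes and oligodendrocyte precursors were present in shCtrl vehicle, with summed levels of 594, 304 and 141 FPKM over 8 genes each and none at 0; markers of oligodendrocytes (4 genes) summed to 61.2 FPKM, of neural progenitors (3 genes) to 55.3 FPKM, of microglia (6 genes) to 19.7 FPKM and of endothelium and fibroblasts (3 genes) to 1.14 FPKM in the authors' deposited table, also with none at 0.

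TTX lowered both activity-linked members in the control arm. Plk2 fell by 1.01 on the log2 scale in the authors' deposited table (SE 0.094, adjusted p 6.85e-25), which is 2.02-fold lower. Plk3 fell by 0.73 (SE 0.18, adjusted p 0.000341), 1.66-fold lower, in the authors' deposited table. Of the 4 members with an adjusted p, 2 were called lower and 0 higher, where 14.9% of the genes with an adjusted p were called lower and 26.7% were called in either direction. The log2 change of Plk1 was -0.05 with a 95% interval from -0.53 to 0.43, and that of Plk4 was 0.01 with an interval from -0.53 to 0.54, in the authors' deposited table. The pooled FPKM gave other values for these low-count genes, a log2 ratio of TTX to vehicle of 0.17 for Plk1 and -0.52 for Plk4. Plk5 had a log2 change of 0.56 (SE 0.39) and no adjusted p in the authors' deposited table.

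BIC raised the same pair in the control arm. Plk2 rose by 1.63 (SE 0.10, adjusted p 3.23e-53), 3.09-fold, in the authors' deposited table, and ranked 60th of all tested genes by p-value. Plk3 rose by 0.78 (SE 0.18, adjusted p 8.30e-05), 1.72-fold, in the authors' deposited table. Of the 4 members with an adjusted p, 2 were called higher and 0 lower, beside 17.4% of genes called higher and 34.4% called in either direction. Plk1 had a log2 change of -0.36 (interval -0.88 to 0.17) and Plk4 one of -0.21 (interval -0.79 to 0.37) in the authors' deposited table, and neither passed the test. Plk5 stood at -0.01 (SE 0.36) with no adjusted p in the authors' deposited table.

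In the libraries labelled shRai1 the same 2 genes were called under each drug. Their log2 changes had other values there, but only the Plk2 difference under TTX passed the test between arms given below. Under TTX, Plk2 fell by 0.46 (SE 0.084, adjusted p 4.30e-07), 1.38-fold lower, in the authors' deposited table. Plk3 fell by 1.48 (SE 0.16, adjusted p 6.51e-18), 2.78-fold lower, in the authors' deposited table. Of 4 members with an adjusted p, 2 were called lower, beside 16.8% of genes lower and 30.5% in either direction. Plk4 had a log2 change of 0.44 (SE 0.25, adjusted p 0.177) and Plk1 one of 0.01 (SE 0.23, adjusted p 0.984) in the authors' deposited table. Under BIC, Plk2 rose by 2.06 (SE 0.082, adjusted p 3.18e-136), 4.16-fold, in the authors' deposited table, the 14th smallest p-value among all tested genes. Plk3 rose by 0.40 (SE 0.14, adjusted p 0.0142), 1.32-fold, in the authors' deposited table, a call that is lost at an adjusted p threshold of 0.01. Of 5 members with an adjusted p, 2 were called higher, beside 21.3% of genes higher and 42.5% in either direction. The count called in either direction is thus near the share over all genes. Plk1 (0.07, SE 0.23), Plk4 (0.15, SE 0.26) and Plk5 (-0.49, SE 0.41, adjusted p 0.362) did not pass the test in the authors' deposited table.

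**Figure D3:**
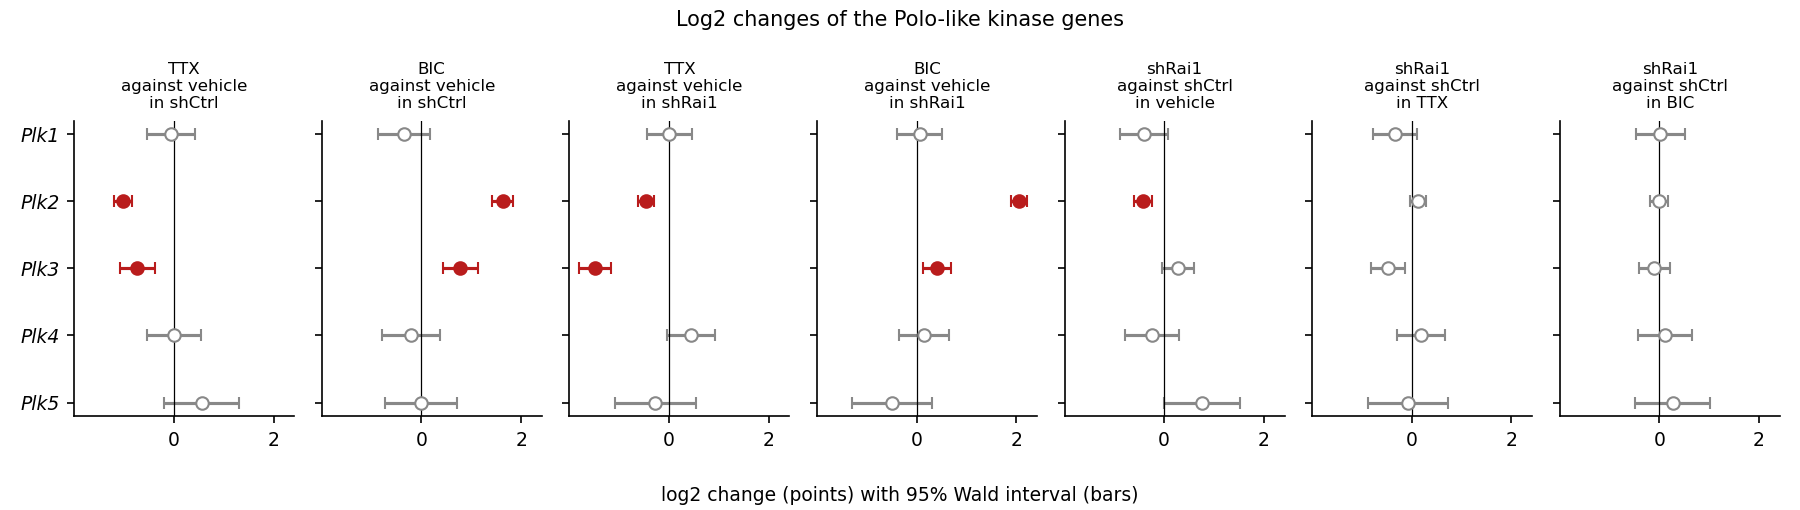
Log2 changes of the 5 genes in the 7 deposited comparisons (points) with 95% Wald intervals computed from the deposited SEs (bars); filled points have an adjusted p under 0.05. Plk2 and Plk3 are filled in all 4 drug comparisons, Plk2 is also filled for shRai1 against shCtrl in vehicle at -0.43, and no point of Plk1, Plk4 or Plk5 is filled.

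Averaged over the arms, which share no library, the log2 change under TTX was -0.74 (SE 0.063, adjusted p 5.79e-30) for Plk2 and -1.10 (SE 0.12, adjusted p 1.45e-18) for Plk3, from a Wald test on the deposited changes. Under this average 33.1% of 18241 genes were called. Under BIC the averages were 1.84 (SE 0.066, adjusted p 1.53e-168) for Plk2 and 0.59 (SE 0.11, adjusted p 1.21e-06) for Plk3, where 46% of genes were called. BIC minus TTX came to 2.58 (SE at most 0.091, adjusted p 4.09e-173) for Plk2, a 5.98-fold span between silenced and disinhibited cultures. For Plk3 it came to 1.69 (SE at most 0.17, adjusted p 3.37e-23), a 3.24-fold span, with 46.8% of genes called in this contrast. Plk1 had a difference of -0.12 (interval -0.60 to 0.35) and Plk4 one of -0.25 (interval -0.78 to 0.27), so neither showed a difference between the drugs at this precision. Plk5 was below the 0.1 FPKM floor of these averaged tests and has no adjusted p there.

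Rai1 knockdown was compared with control shRNA within each treatment. In vehicle, Plk2 fell by 0.43 (SE 0.094, adjusted p 0.00314), 1.35-fold lower in shRai1, in the authors' deposited table, with a 95% interval from -0.61 to -0.25. It ranked 21st by p-value, and 1 of the 4 members with an adjusted p was called lower, beside 0.73% of genes called lower and 0.857% in either direction. In TTX the Plk2 difference was 0.12 (SE 0.085, adjusted p 1.00, interval -0.04 to 0.29), and in BIC it was -0.00 (SE 0.091, adjusted p 1.00, interval -0.18 to 0.18), in the authors' deposited tables. None of the 5 members was called in either, where the authors' deposited tables held 0.0283% and 0.00944% of genes called. The vehicle comparison rests on 2 shCtrl libraries.

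Plk3 did not pass the test in any knockdown comparison. Its log2 differences in the authors' deposited tables were 0.28 (interval -0.05 to 0.61, adjusted p 0.554) in vehicle, -0.47 (interval -0.81 to -0.13, adjusted p 1.00) in TTX and -0.10 (interval -0.41 to 0.21, adjusted p 1.00) in BIC. The TTX difference had an unadjusted p of 0.00717 in the authors' deposited table and did not survive adjustment over all genes. In the authors' deposited tables for vehicle, TTX and BIC, Plk1 stood at -0.40 (SE 0.25, adjusted p 0.568), -0.34 (SE 0.23, adjusted p 1.00) and 0.02 (SE 0.25, adjusted p 1.00). Plk4 stood at -0.25 (SE 0.28), 0.19 (SE 0.25) and 0.12 (SE 0.28), and Plk5 at 0.76 (SE 0.39, unadjusted p 0.0522), -0.08 (SE 0.41) and 0.27 (SE 0.38), in the same tables deposited by the authors. Averaged over the 3 treatments, the Plk2 difference was -0.10 (SE 0.052, unadjusted p 0.0491, adjusted p 1.00), and 0.00548% of genes were called in that average.

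Whether the drug responses differed between arms was tested directly. The TTX response of Plk2 was 0.55 higher in shRai1 than in shCtrl (SE 0.13, interval 0.30 to 0.80, adjusted p 0.00491), that is, the fall was smaller; 0.943% of 18241 genes were called in this test. In the same test 4 of the 23 activity-regulated genes described below were higher (Ptgs2, Scg2, Homer1 and Rgs2) and 0 lower, with a list median of 0.51 against -0.00 over all genes. Beside these, 6 of 8 oligodendrocyte precursor markers were higher (median 1.13) and 1 of 8 neuron markers, Rbfox3, was lower (-0.40, SE 0.090, adjusted p 0.00485), and their part in the Plk2 difference was not tested. By arithmetic the Plk2 difference equals the knockdown difference in TTX minus that in vehicle, so it and the lower vehicle level draw on the same vehicle libraries and are not separate evidence. The TTX response of Plk3 differed by -0.75 (SE 0.24, unadjusted p 0.00190, adjusted p 0.112), the opposite direction, and did not pass. Under BIC the response of Plk2 was 0.43 higher in shRai1 (SE 0.13, unadjusted p 0.00121, adjusted p 0.886) and that of Plk3 was -0.38 (SE 0.23, adjusted p 1.00), with 0.0219% of genes called. In this test all 23 activity-regulated genes had positive differences, with a list median of 0.47 against 0.01 over all genes. Of them 1, Scg2, was called (0.85, SE 0.19, adjusted p 0.0308). For Plk1 the response differences were 0.06 (interval -0.59 to 0.72) under TTX and 0.42 (interval -0.27 to 1.11) under BIC. For Plk4 they were 0.44 (interval -0.29 to 1.16) and 0.36 (interval -0.40 to 1.13). Whether Plk2 and Plk3 differ from each other in these responses was not tested.

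Set on 1 scale, relative to shCtrl in vehicle, the log2 level of Plk2 was -1.01 in shCtrl TTX, 1.63 in shCtrl BIC, -0.43 in shRai1 vehicle, -0.89 in shRai1 TTX and 1.63 in shRai1 BIC, chained from the authors' deposited tables. The arms thus stood apart by 0.43 in vehicle and by 0.12 in TTX, where the difference was not called, and met in BIC. Plk3 was at -0.73, 0.78, 0.28, -1.20 and 0.68 in the same order of groups. The range over the 6 groups was 2.64 for Plk2 and 1.98 for Plk3, against 0.40 for Plk1, 0.44 for Plk4 and 0.76 for Plk5.

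Of the 12333 genes whose mean normalized count reached 50, those whose 6-group profiles lay nearest to that of Plk2 included Gm3383, Gm5796, Zfp184 and Sat1, at Euclidean distances of 0.182 to 0.279 on the log2 scale, where the median gene lay at 2.71. Gm3383 and Gm5796 are predicted gene models, and Sat1 encodes the rate-limiting enzyme of polyamine catabolism. Sat1, for instance, stood at -1.25 in shCtrl TTX and 1.67 in shCtrl BIC, beside -1.01 and 1.63 for Plk2. Nearest to Plk3 were Ptpn5, Cemip, Osbpl3, Diras2 and Per2, at 0.254 to 0.349, with the median gene at 1.80. Ptpn5 encodes STEP, a tyrosine phosphatase of striatal and cortical neurons, and Per2 is a circadian clock gene. The genes nearest to Plk1 included Cd44, Spata5, 5730408K05Rik and Camk1d, at 0.123 to 0.162, with the median gene at 0.646. These distances come from 6 group means that share libraries and are a description of the profiles. The named genes depend on the measure: by Pearson correlation of the profiles, 0 of the 5 nearest genes stayed the same for Plk2, 0 for Plk3 and 3 for Plk1.

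**Figure D4:**
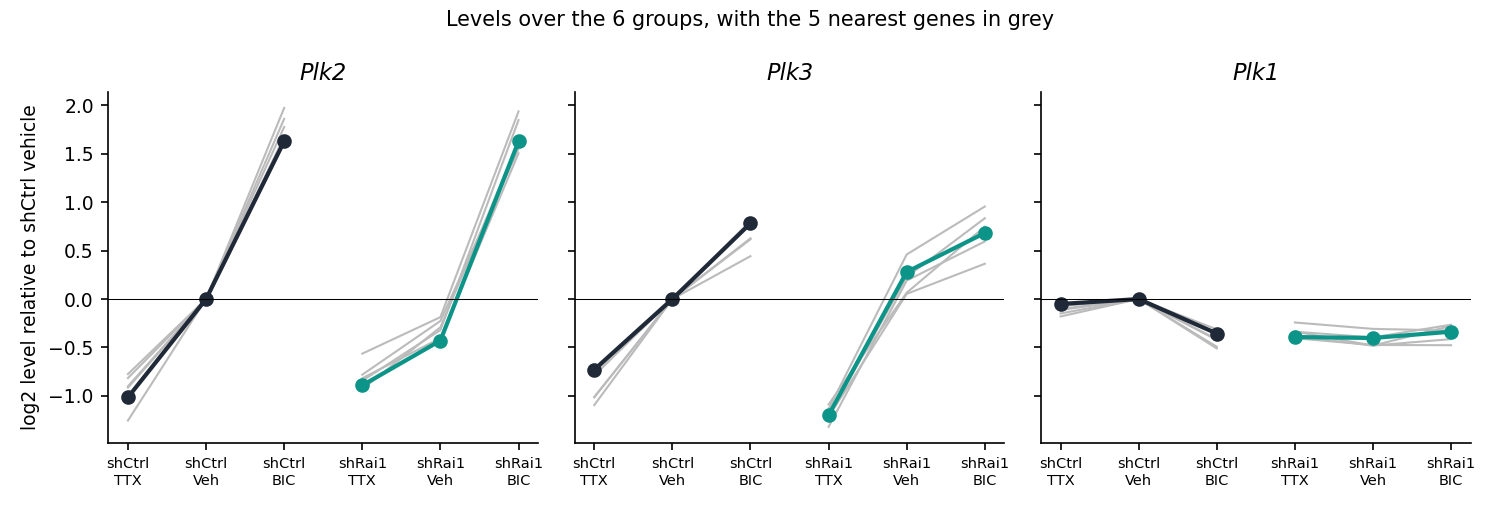
Log2 level relative to shCtrl in vehicle over the 6 groups for Plk2, Plk3 and Plk1 (dark points, shCtrl; teal points, shRai1), with the 5 nearest genes of each as grey lines. Plk2 runs from -1.01 to 1.63 in shCtrl and from -0.89 to 1.63 in shRai1, Plk3 from -0.73 to 0.78 and from -1.20 to 0.68, and Plk1 stays within a range of 0.40.

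Activity-regulated genes of neurons, a list of 23 that includes Fos, Arc, Npas4 and Bdnf, give the setting for Plk2 and Plk3. All 23 fell under TTX in both arms of the authors' deposited tables, with a median log2 change of -2.27 in shCtrl and -1.84 in shRai1, where the median of all genes was 0.00 in each and 14.9% and 16.8% of genes were called lower. The 3 with the greatest falls in shCtrl were Ptgs2, a cyclooxygenase (-3.95, SE 0.21, adjusted p 3.40e-75), Npas4, a neuronal transcription factor (-3.92, SE 0.24), and Nr4a1, an orphan nuclear receptor (-3.08, SE 0.25), in the authors' deposited table. In shCtrl, 22 of the 23 fell further than Plk2 and 22 further than Plk3. In shRai1, 22 fell further than Plk2 and 15 further than Plk3. Under BIC in shCtrl, 13 of 23 rose and 4 fell, where 34.4% of all genes were called and 17.4% were called higher, with a median of 0.49 and values from -1.97 for Egr3 to 4.13 for Inhba, a subunit of activins, in the authors' deposited table. In shRai1 under BIC, 17 rose and 3 fell, with a median of 1.27, in the authors' deposited table, where 42.5% of all genes were called. Beside these changes, 4 of 8 neuron markers fell and 1 rose under TTX in shCtrl, and 4 rose and 3 fell under BIC, in the authors' deposited tables. The neuron markers did not share 1 direction: under TTX they ran from -0.95 (Gad1) to 0.42 (Rbfox3), and under BIC from -0.72 (Tubb3) to 1.47 (Gad2), in the authors' deposited tables, the 4 genes being named after their values were seen. The summed level of the 8 in shCtrl was 594 FPKM in vehicle, 524 FPKM in TTX and 590 FPKM under BIC, from the authors' deposited table, with none at 0 in vehicle, and their part in the Plk2 and Plk3 responses was not tested. Plk2 rose more than 18 of the 23 in shCtrl and more than 18 in shRai1, and Plk3 lay above 14 and above 5. Beside this list Plk2 thus ranked low by the size of its fall under silencing and high by its rise under disinhibition, an order of values with no test.

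In vehicle, 5 of the 23 were lower in shRai1 (Ptgs2, Scg2, Egr1, Rgs2 and Homer1; Rgs2 and Homer1 were named after their values were seen), with a median of -0.45 in the authors' deposited table against -0.01 over all genes, of which 0.73% were called lower. Ptgs2 fell by 0.95 (SE 0.15, adjusted p 1.29e-06) and Scg2, which encodes secretogranin II, by 0.72 (SE 0.14, adjusted p 0.000303) in the authors' deposited table. The Plk2 value of -0.43 lay inside this list, above 13 and below 10 of its genes, while that of Plk3, 0.28, lay above all 23. In TTX the order was turned for Plk3, whose difference of -0.47 lay below all 23, as values with no test. In the authors' deposited tables none of the list was called in TTX (median 0.01) or in BIC (median 0.06). There 0.0283% and 0.00944% of all genes were called, so a count of 0 is near those shares. Beside the differences in vehicle, 4 of 7 oligodendrocyte precursor markers with an adjusted p were lower in the shRai1 arm (median -0.76 over all 8), 1 of 7 astrocyte markers with an adjusted p was lower, and 1 of 8 neuron markers was higher, in the authors' deposited table. The part of cell makeup in the Plk2 difference was not tested.

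The promoter search gave the same list a count: 15 of the 17 activity-regulated genes with a RefSeq promoter held at least 1 CRE half-site, beside 20.8% of all promoters, and Dusp1 and Scg2 held the full CRE. The full CRE was also found in Btg2 of the stress and p53 genes and Cep57 of the centriole genes. Of the genes with the profiles nearest by distance to Plk2, 0 of the 4 with a promoter held a half-site, and of those nearest to Plk3, 1 of 4 did. In the 300-base windows printed in part above, Plk2 shares the full CRE with Dusp1, Scg2, Btg2 and Cep57, and Plk3 holds half-sites only.

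Synaptic partners of Plk2, 18 genes that encode its known substrates, priming kinase and neighbours at the synapse, each changed by less than Plk2 itself in the 4 drug comparisons, as an order of values with no test. Sipa1l1, the gene of the Plk2 target SPAR, fell by 0.75 (SE 0.075, adjusted p 4.83e-22) under BIC in shCtrl and by 0.78 (SE 0.059, adjusted p 2.88e-39) in shRai1 in the authors' deposited tables. Cdk5, the kinase that primes SPAR for Plk2, fell by 0.79 (SE 0.19, adjusted p 0.000125), and its activator Cdk5r1 by 0.60 (SE 0.11, adjusted p 1.21e-06), under BIC in shCtrl, from the authors' deposited table. In total 7 of 18 fell and 2 rose under BIC in shCtrl (median -0.08, all genes -0.02), and 9 fell and 3 rose in shRai1 (median -0.16, all genes 0.00), in the authors' deposited tables, where 34.4% and 42.5% of all genes were called. The pair that rose in shCtrl, named after its values were seen, was Gria2 (0.55, SE 0.13, adjusted p 0.000128), an AMPA receptor subunit, and Rap1a (0.31, SE 0.099, adjusted p 0.00641), a small GTPase, in the authors' deposited table.

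Under TTX in shCtrl, 5 of these 18 rose and 2 fell (median 0.07, all genes 0.00) in the authors' deposited table, where 26.7% of all genes were called. Cacna1c, an L-type calcium channel subunit, rose by 0.63 (SE 0.090, adjusted p 6.30e-11), Rasgrf1, a Ras exchange factor and Plk2 substrate, by 0.43 (SE 0.081, adjusted p 1.89e-06), and Gria1 by 0.42 (SE 0.10, adjusted p 0.000379) in the authors' deposited table. The authors' pooled FPKM also rose for Cacna1c and Gria1 but not for Rasgrf1, at 26.1 in vehicle and 25.5 in TTX. In shRai1 under TTX, 3 rose and 3 fell, near the share of 30.5% called over all genes. In the authors' deposited tables none of the 18 was called between arms in any treatment. Over all genes 0.857% were called in vehicle, 0.0283% in TTX and 0.00944% in BIC, so a count of 0 is near those shares.

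Stress and p53 genes, 18 genes around the known roles of Plk3, split. Under TTX in shCtrl 6 fell and 0 rose (median -0.13, all genes 0.00), and under BIC 8 rose and 4 fell (median 0.17, all genes -0.02), in the authors' deposited tables, where 26.7% and 34.4% of all genes were called. In shRai1 under TTX 3 fell and 2, Mdm2 and Bbc3, rose (median 0.02, all genes 0.00; the pair was named after its values were seen), and under BIC 9 rose and 3 fell (median 0.21), in the authors' deposited tables, where 30.5% and 42.5% of all genes were called. The TTX count in shRai1 is near the share over all genes. Beside these, 3 of 8 astrocyte markers fell under TTX and 2 fell under BIC in shCtrl, and of microglia markers both of the 2 with an adjusted p rose under BIC and 0 were called under TTX, in the authors' deposited tables; their part in the values was not tested. The members with the greatest changes are also known as immediate-early or activity-induced genes. Atf3, a stress transcription factor, fell by 2.54 (SE 0.26, adjusted p 5.25e-20) under TTX and rose by 1.80 (SE 0.28, adjusted p 1.03e-09) under BIC in shCtrl, from the authors' deposited tables. Gadd45g, a growth arrest gene, fell by 2.09 (SE 0.14, adjusted p 6.67e-49) and rose by 1.78 (SE 0.14, adjusted p 1.46e-34) in the same tables deposited by the authors. Btg2, an antiproliferative p53 target, fell by 1.76 (SE 0.20, adjusted p 4.41e-16) under TTX, and Jun rose by 1.29 (SE 0.22, adjusted p 8.56e-08) under BIC, in the authors' deposited tables. In vehicle, where 0.73% of all genes were called lower and 0.857% in either direction, Gadd45g was the 1 gene of this list called in shRai1. It stood at -0.46 (SE 0.13, adjusted p 0.0473) in the authors' deposited table. That call is lost at a threshold of 0.01, without the authors' filter, over genes of at least 0.5 FPKM and with centring on the median.

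G2-M and mitotic genes, 26 genes around Plk1, had 2 called lower under TTX and 2 higher and 2 lower under BIC in the control arm of the authors' deposited tables, where 26.7% and 34.4% of all genes were called. The pair under TTX was Ccnb1 (-0.70, SE 0.26, adjusted p 0.0296) and Kif23 (-0.68, SE 0.22, adjusted p 0.0107), and both calls are lost at a threshold of 0.01. Of those under BIC, Bora, the cofactor through which Aurora A activates Plk1, rose by 1.01 (SE 0.27, adjusted p 0.00109), Prc1, of the spindle midzone, rose by 0.77 (SE 0.18, adjusted p 9.82e-05), and the phosphatase gene Cdc25b fell by 0.80 (SE 0.30, adjusted p 0.0239) in the authors' deposited table. In the shRai1 arm 6 rose and 0 fell under TTX (median 0.36, all genes 0.00), and 6 rose and 2 fell under BIC (median 0.25, all genes 0.00), in the authors' deposited tables, where 30.5% and 42.5% of all genes were called and 21.3% were called higher under BIC. In vehicle 5 of 25 with an adjusted p were lower in shRai1 and 0 higher (median -0.42, all genes -0.01) in the authors' deposited table, where 0.73% of all genes were called lower. These were Mki67 (-0.96, SE 0.24, adjusted p 0.0182), Kif23 (-0.83, SE 0.22), Ect2 (-0.75, SE 0.21), Top2a (-0.72, SE 0.19) and Tpx2 (-0.59, SE 0.17), the last pair named after their values were seen, in the authors' deposited table. The Plk1 value of -0.40 stood near that median and was not called. The count of 5 goes to 3 without the authors' filter or over genes of at least 0.5 FPKM, and to 0 at a threshold of 0.01.

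Oligodendrocyte precursors, named in the labels, are known as dividing cells, and their 8 markers are given beside the mitotic list. In vehicle 4 of the 7 with an adjusted p were lower in shRai1 (median -0.76 over all 8), with Pdgfra at -1.37 (SE 0.13, adjusted p 6.02e-21), in the authors' deposited table. There 0.73% of all genes were called lower and 0.857% in either direction. Between arms in BIC 1 of the 8 was lower in shRai1, Pdgfra at -0.90 (SE 0.13, adjusted p 1.93e-07), with a list median of -0.41. Between arms in TTX 1 was higher, Pdgfra at 0.50 (SE 0.11, adjusted p 0.0482), with a list median of 0.44. Of all genes 0.00944% were called in BIC and 0.0283% in TTX, in the authors' deposited tables. Under TTX 5 fell in shCtrl (median -0.73), and 5 rose and 1, Vcan, fell in shRai1 (median 0.38), in the authors' deposited tables, where 26.7% and 30.5% of all genes were called. Their summed level in shCtrl was 141 FPKM in vehicle, 101 FPKM in TTX and 132 FPKM in BIC, from the authors' deposited table, with no marker at 0 in vehicle. In the Wald test of the TTX response between arms, 6 of these 8 markers and 2 of the 26 mitotic genes were higher in shRai1, where 0.943% of genes were called. The 2 were Mki67 (1.32, SE 0.32, adjusted p 0.0109) and Ect2 (1.19, SE 0.28, adjusted p 0.00845). The call of Mki67 is lost at a threshold of 0.01. Of the 3 neural progenitor markers, another dividing type, 2 fell under TTX in each arm and 0 were called between arms in vehicle, in the authors' deposited tables. The part of both marker lists in the Plk1 and mitotic values was not tested.

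Centriole duplication genes, 17 genes around Plk4, had calls in both directions. The number called in either direction under each drug was near the share over all genes. Under TTX in shCtrl 3 rose and 3 fell (median 0.00), where 26.7% of all genes were called, with Stil, a centriole assembly factor that binds Plk4, falling by 1.14 (SE 0.20, adjusted p 2.43e-07) and Cep97, which caps centrioles, rising by 0.78 (SE 0.11, adjusted p 9.50e-11) in the authors' deposited table. The authors' pooled FPKM of Stil, 1.28 in vehicle and 1.33 in TTX, did not show that fall, and the reason was not tested. In shRai1 under TTX 4 rose and 1 fell, and Stil, at -0.21 (adjusted p 0.432), was not among them, in the authors' deposited tables, where 30.5% of all genes were called. The difference between the arms in the Stil response, 0.93 (SE 0.27, adjusted p 0.0575 by the Wald test), did not pass. Under BIC in shCtrl 1 rose and 6 fell (median -0.21, all genes -0.02), where 34.4% of all genes were called and 17.4% were called higher, in the authors' deposited table. The one that rose in shCtrl was Mib1, a ubiquitin ligase known to act on Plk4, by 0.92 (SE 0.095, adjusted p 7.08e-21), and Pcnt, of the pericentriolar matrix, fell by 0.76 (SE 0.12, adjusted p 6.50e-09) in the authors' deposited table. In shRai1 under BIC 2 rose and 7 fell (median -0.09, all genes 0.00), where 42.5% of all genes were called, in the authors' deposited table. Neither Plk4 nor any of the 17 was called between arms in vehicle, TTX or BIC in the authors' deposited tables. There 0.857%, 0.0283% and 0.00944% of all genes were called, so a count of 0 is near those shares.

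**Figure D5:**
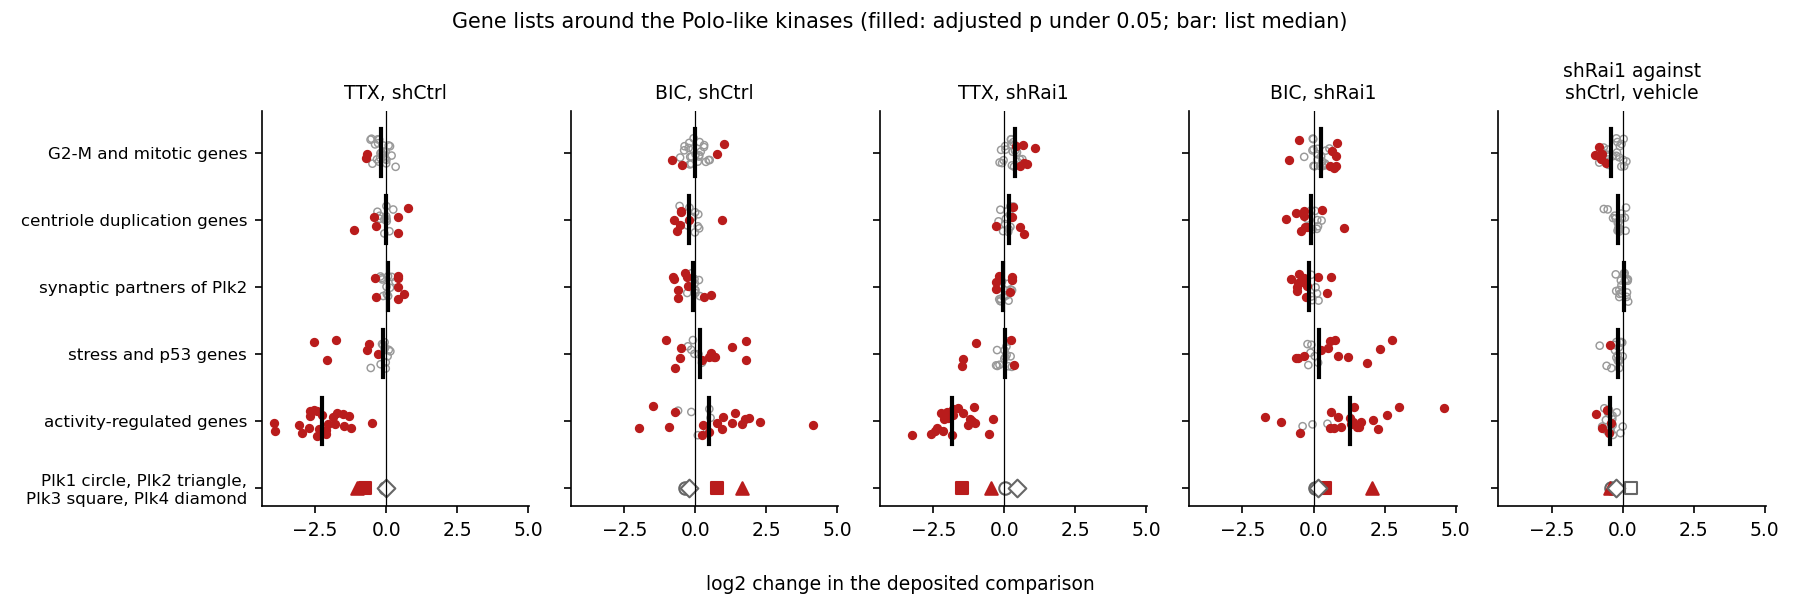
Log2 changes of the 5 gene lists in 5 deposited comparisons (circles; filled for an adjusted p under 0.05; bar for the list median), with Plk1 to Plk4 in the last row. The activity-regulated list has its median at -2.27 under TTX in shCtrl and 0.49 under BIC, and the medians of the other 4 lists lie between -0.42 and 0.36.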

How the data were processed

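Nascent RNA was measured by Bru-seq in 16 libraries of 6 groups. Per the submitters' processing notes, reads were handled with TopHat2 2.1.0, Bowtie2 2.2.6 and DESeq2 on mouse build mm9; other steps, the FPKM tool and the strand setting are not given in the sources used here. The files used here hold summaries: 7 comparison tables with a mean normalized count (signal scale), log2 change, SE, Wald statistic (score) and p-value with adjusted p-value per gene, per the file headers, and 1 deposited table of pooled FPKM with bounds. Counts per library were not analysed here, so the planned edgeR or DESeq2 fits, leave-one-out and replicate blocks were not run, and depth is unknown. The log2 changes, p-values and the Wald score (log2 change over SE) were used as the authors deposited them. An adjusted p that was missing stayed missing.

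The table of shRai1 against shCtrl in vehicle carries no gene names. Its rows were named through the mean normalized count, which is the same in all 7 tables: 20107 of 21192 were unique, and the other 1085 had means of at most 0.306. The log2 changes summed to 0 around each loop of 4 groups to within 1e-09. FPKM columns of the knockdown arm went against the comparison tables and were used for no condition, only in the mean over the 6 conditions that sets the floor of 0.1 FPKM.

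Interactions and averages were Wald tests on the deposited log2 changes, two-sided, with SE from summed squared SEs and Benjamini-Hochberg adjustment over 18241 genes (Python 3.11.15, numpy 2.4.6, pandas 2.3.3, scipy 1.17.1, matplotlib 3.10.9). BIC minus TTX shares vehicle libraries within an arm, so its SE is an upper bound. On simulated data of 18241 genes, 92% of changes of 1 log2 unit were recovered for the TTX interaction and 77% for the BIC interaction, and 100% of changes of 2. Intervals are 95% Wald intervals. Named genes are the 5 members, Rai1, the 5 nearest profiles of each member with a mean count of at least 50, and per list the 3 called genes with the largest change in TTX and BIC in shCtrl and in shRai1 in vehicle. Members and lists were chosen with earlier results of these data known. Some genes that the rule names are not reported here. Protein sequences were not used here.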

Additional observations from a re-analysis of the deposited data

Results flagged for a closer look

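The response of Plk2 to TTX differed between the arms: it was 0.55 higher on the log2 scale in shRai1 than in shCtrl (SE 0.13, adjusted p 0.00491 by the Wald test on the deposited changes), with log2 changes of -0.46 and -1.01 in the authors' deposited tables. The test of the difference itself drew attention to it. It shares its vehicle libraries with the lower Plk2 level in shRai1 vehicle, and 2 of them are the whole shCtrl vehicle group.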

How the results depend on the processing

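Adjusted p thresholds of 0.01 and 0.1, other filters before adjustment, centring on the median, and, for the interactions, SEs from the knockdown tables gave 305 alternative values for the 5 genes. Of these, 304 kept their side of the threshold, and none that passed changed direction; the exception was Plk3 under BIC in shRai1, 0.40, which is not called at 0.01. No paired analysis was possible because the values analysed here are summaries over libraries, and for that reason no library could be left out and no count model refitted; protein identity was not run. Centring moved no comparison by over 0.1. Counts of called genes moved most at the thresholds of 0.01 and 0.1: shRai1 against shCtrl in vehicle 122 to 35 and 204, the TTX interaction 172 to 62 and 272, shRai1 against shCtrl in TTX 6 to 2 at 0.01, the BIC interaction 4 to 0 at 0.01. For shRai1 against shCtrl in BIC 2 calls became 1 at 0.01, and 5 at 0.1, over counts of at least 50, or over genes of at least 0.5 FPKM. Ranked by Pearson correlation, 3, 0 and 0 of the 5 genes nearest to Plk1, Plk2 and Plk3 were the same. The causes were not tested. Plk4 and Plk5 had the lowest mean normalized counts of the 5 genes, 44.6 and 2.35, with Plk1 next at 55.4.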

Other observations

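The FPKM columns named for the knockdown arm were used for no condition above. For Plk2 the authors' deposited table lists 89.8 in the untreated column, 131 in the bicuculline column and 438 in the TTX column, while the authors' deposited comparisons in shRai1 give Plk2 log2 changes of 2.06 under BIC and -0.46 under TTX. For Plk3 the same columns of the authors' deposited table hold 3.91, 12.5 and 14.5, beside log2 changes of 0.40 under BIC and -1.48 under TTX in the authors' deposited comparisons. The column order was not reassigned, and which table carries the intended names was not tested.

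Of the 17 G2-M and mitotic genes with a RefSeq promoter, 16 held a CCAAT box and 12 held the CHR letters within the 300-base window, as Plk1 does, beside 37.4% and 17.9% of all promoters. The CCAAT box was also in 15 of the 17 stress and p53 genes with a promoter. A CRE half-site was in 5 of those 17 and in 15 of 17 activity-regulated genes, beside 20.8% of all promoters. These are counts of letters, with no test.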
